A study of Mus musculus with 6 samples.

Results

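Cell cycle and DNA replication genes were followed in the liver of mice labelled Sec15 knockout (KO) and wild type (WT). The set holds 51 mouse genes, 14 that act in G1, 15 in S phase and 22 in G2 and mitosis, out of 20659 genes with a RefSeq symbol on the array. Every non-control probe whose transcript accession maps to 1 of the 51 symbols was used. All 51 genes had a probe, and 41 passed a filter on brightness (signal flagged well above background on 3 or more of 6 arrays). These were 12 of 14 G1 genes, 14 of 15 S phase genes and 15 of 22 mitotic genes.

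Total RNA from the liver of untreated male mice aged 6 weeks was hybridised to one-colour Agilent arrays, with 3 Sec15 KO and 3 WT samples. Sec15 is a subunit of the exocyst, which tethers secretory vesicles to the plasma membrane. In the mouse, Exoc6 and Exoc6b both encode a Sec15. Which of them was deleted, by what means and in which cells is not in the labels. The samples are numbered as replicates, with no word on whether each came from its own animal. A p-value here therefore reflects only how far these samples spread, and some of that spread may be technical. A number is shared by the names under which WT replicates 1 and 2 were deposited, and these may be 1 animal. The 3 WT arrays and KO replicate 2 carry the same scan time in their headers (scan 1), and KO replicates 1 and 3 carry another (scan 2). Scan 2 holds KO arrays only, so the only difference within a scan is that of KO replicate 2 from the WT arrays. Every difference given below with the scan as a block is therefore that of KO replicate 2 alone from the WT mean.

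A level is the log2 processed signal minus the 75th percentile of its array, and a difference is the mean level in KO minus that in WT. Levels of different genes come from different probes and are not compared with each other. Between 64.8% and 70.3% of probes were well above background on an array, lower on each KO array than on each WT array. The Exoc6 probe was well above background on 0 KO arrays and 1 WT array, so it gives no check of the labels. The brighter Exoc6b probe read 0.14, -0.033 and -0.055 in KO replicates 1, 2 and 3, against 0.31, 0.78 and 0.55 in WT replicates 1, 2 and 3 (limma adjusted p = 0.0436). Whether it lies in the deleted part is not known. All 11 hepatocyte markers with a probe (such as Alb, Ttr and Hnf4a) were well above background on all 6 arrays.

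Cells enter the cycle when D-type cyclins with Cdk4 or Cdk6 inactivate the Rb family and free E2F factors to switch on the genes of S phase. The MCM helicase is then loaded on origins by Cdc6 and Cdt1, nucleotides come from ribonucleotide reductase and thymidylate synthase, and Pcna clamps the polymerases to DNA. Mitotic genes are switched on later by B-Myb with the MuvB complex and by Foxm1, through promoters that often carry CCAAT boxes and an element called CHR. Most hepatocytes of a grown liver rest outside the cycle, while those of young mice still double their genomes and divide.

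The promoters of 5 of the genes are shown with these elements. Mki67, Rrm2, E2f2 and Ccnb1 are genes whose difference kept its call when the scan entered the fit, and Cdk1 is shown because its difference was smaller in scan 1. Each sequence is the 250 bases before the gene start on the gene's strand, from RefSeq on build GRCm38.p6. They lie at chr7:135716380-135716629 (minus strand), chr12:24708004-24708253 (plus), chr4:136172024-136172273 (plus, the first of the starts listed), chr13:100786487-100786736 (minus) and chr10:69352913-69353162 (minus). Capitals mark CCAAT, the CHR letters TTTGAA and the E2F letters TTTNNCGC, read on both strands.
Mki67: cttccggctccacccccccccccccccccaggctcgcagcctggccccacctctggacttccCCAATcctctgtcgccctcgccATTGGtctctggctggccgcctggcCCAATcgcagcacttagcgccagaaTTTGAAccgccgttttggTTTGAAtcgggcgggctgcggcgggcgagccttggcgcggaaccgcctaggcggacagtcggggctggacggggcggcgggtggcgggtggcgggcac
Rrm2: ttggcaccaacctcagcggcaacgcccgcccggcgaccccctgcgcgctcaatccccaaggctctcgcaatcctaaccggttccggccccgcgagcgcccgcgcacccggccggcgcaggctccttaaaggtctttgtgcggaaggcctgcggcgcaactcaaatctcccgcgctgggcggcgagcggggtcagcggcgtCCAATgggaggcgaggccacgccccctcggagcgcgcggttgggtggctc
E2f2: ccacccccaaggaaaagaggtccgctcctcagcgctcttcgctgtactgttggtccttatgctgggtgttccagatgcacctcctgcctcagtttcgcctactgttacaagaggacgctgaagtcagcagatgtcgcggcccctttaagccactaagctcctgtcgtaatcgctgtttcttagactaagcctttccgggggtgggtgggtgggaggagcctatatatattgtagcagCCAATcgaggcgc
Ccnb1: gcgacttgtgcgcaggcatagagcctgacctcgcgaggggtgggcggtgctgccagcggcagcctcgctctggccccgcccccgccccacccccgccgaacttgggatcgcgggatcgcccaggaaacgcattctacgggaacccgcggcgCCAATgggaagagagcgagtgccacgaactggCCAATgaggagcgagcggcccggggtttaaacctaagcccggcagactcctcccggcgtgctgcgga
Cdk1: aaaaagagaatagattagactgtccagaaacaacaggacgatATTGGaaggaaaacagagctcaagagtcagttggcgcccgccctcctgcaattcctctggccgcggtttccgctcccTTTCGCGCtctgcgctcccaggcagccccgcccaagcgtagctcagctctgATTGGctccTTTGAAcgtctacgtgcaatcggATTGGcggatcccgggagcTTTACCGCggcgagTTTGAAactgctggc
The Mki67 window held 2 CHR and 3 CCAAT matches, and that of Cdk1 held 2 CHR, 3 CCAAT and 2 E2F matches. The windows shown for Rrm2 and E2f2 had 1 CCAAT match each, and that of Ccnb1 had 2. A second E2f2 window, not shown, held 1 CHR and 3 CCAAT matches.

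Of the 51 genes, 40 had 44 such windows (Ccna2, Ccnd1, Ccnd2, Ccne2, Cdc25c, Aurkb, Foxm1, Kif20a, Mcm4, Myc and Wee1 had none in the table). CCAAT was found in 14 of 16 mitotic windows (87.5%), 11 of 15 S phase windows (73.3%) and 6 of 13 G1 windows (46.2%), beside 33.8% of all 32851 windows of genes of every kind. The CHR letters were in 6 of 16 mitotic windows (37.5%), 2 of 15 S phase and 1 of 13 G1 windows, beside 16% of all windows. E2F letters were in 5 of 15 S phase windows (33.3%), 3 of 13 G1 windows (23.1%) and 1 of 16 mitotic windows, beside 4.28% of all. No match of one motif overlapped a match of another, while E2F matches on opposite strands overlapped in 2 windows, those of Mcm5 and Mcm6. A match is a stretch of letters and not a shown binding site.

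Sec15 KO liver had more signal of several cell cycle genes, led by Rrm2 (5.57-fold), Mki67 (4.16-fold) and the G1 gene E2f2 (3.94-fold). Of the 41 genes that passed the brightness filter, 10 were higher and 2 lower in KO at a limma adjusted p under 0.05, beside 17.3% higher and 12.2% lower among all 22834 genes tested. All genes split into 3958 higher and 2789 lower, against 2441 and 2840 after cyclic loess and 5114 and 2253 with median centring, where the 41 genes gave 9 and 3, and 12 and 2. The KO values lay wholly above the WT values in 17 of the 41 and wholly below in 5, beside 30.6% and 20.1% of all genes. By phase, 1 of 12 G1 genes rose and none fell (5 and 0 at an unadjusted p under 0.05). At that unadjusted cutoff, used for the counts below too, all 22834 genes gave 6133 higher and 4263 lower. In S phase 5 of 14 rose and none fell (5 and 2 unadjusted), and in mitosis 4 of 15 rose and 2 fell. The median difference was 0.30 for G1, 0.48 for S phase and 0.71 for mitotic genes, beside 0.064 for all genes. With the scan as a block these medians were 0.16, 0.32 and 0.047, beside 0.078 for all genes, and mitotic genes then had the lowest of the phases. Without WT replicate 1 they were 0.36, 0.73 and 0.37, with S phase genes the highest. In bulk liver, fewer cells of a type and less RNA per cell cannot be told apart.

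**Figure D1:**
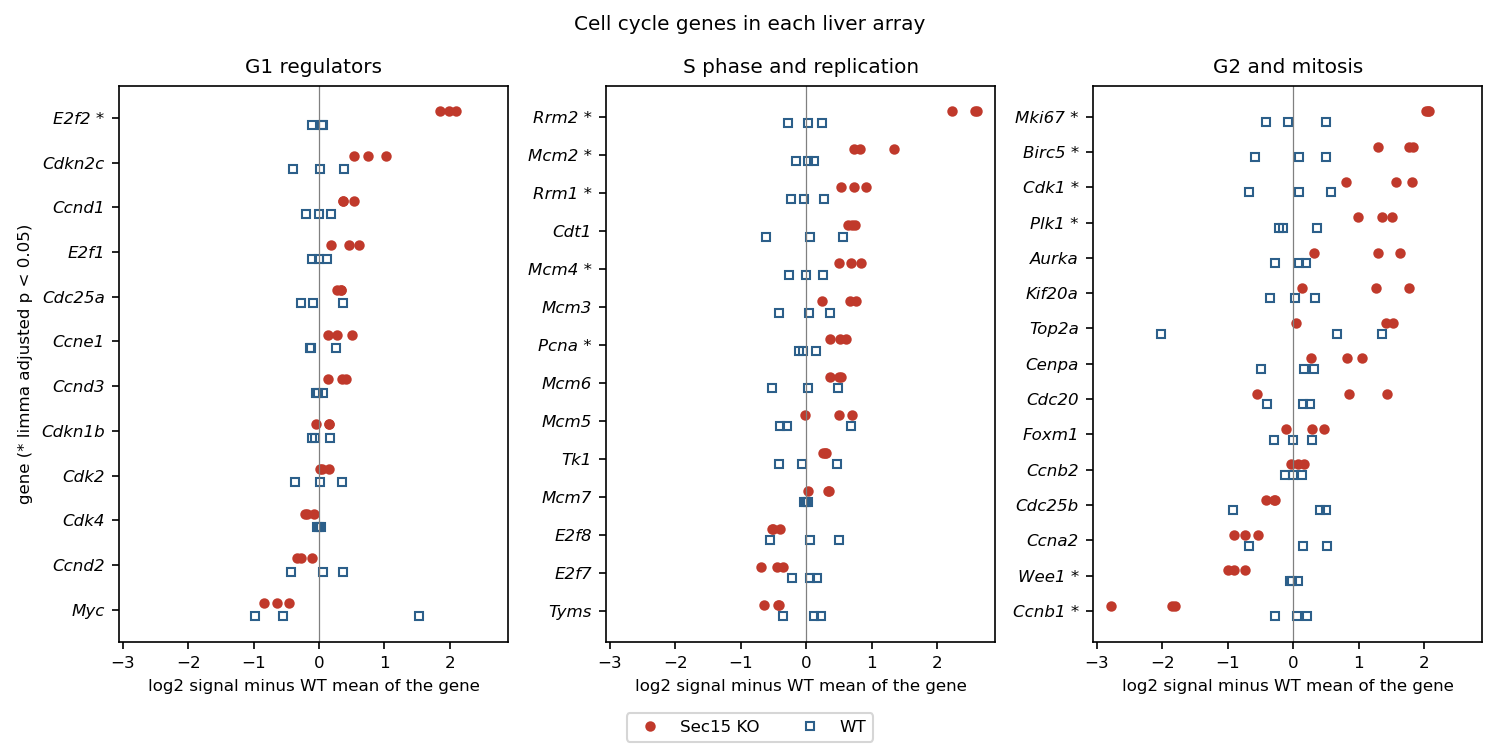
Each row is a gene, with the 3 Sec15 KO arrays (filled circles) above the 3 WT arrays (open squares), and the horizontal axis is the log2 level minus the WT mean of that gene. Mki67, Rrm2 and E2f2 show 3 KO values about 2 units right of WT, Ccnb1 lies about as far left, and most G1 genes lie near 0.

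The count of 10 and 2 leaned on single arrays, as did that of all genes (3958 higher and 2789 lower). Dropping KO replicate 1 left 5 higher and 2 lower (all genes 1483 and 1194). Dropping WT replicate 2 also left 5 and 2 (all genes 1185 and 1072). The count was 3 and 2 without KO replicate 3 (all genes 475 and 519) or WT replicate 3 (all genes 341 and 277). These falls in higher calls were thus not particular to the cell cycle genes. Dropping KO replicate 2 gave 18 and 2 (all genes 5729 and 5071), and dropping WT replicate 1 gave 15 and 7 (all genes 3514 and 2521). With WT replicates 1 and 2 averaged as 1 sample the cell cycle count was 14 and 5. With the scan as a block it was 3 and 2, beside 5.07% higher and 4.68% lower among all genes. The 3 were Rrm2, Mki67 and E2f2, the 2 were Ccnb1 and Wee1, and these 5 kept their calls without any single array.

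Among G1 genes, E2f2 stood apart. This activator E2F, which drives entry into S phase and also has a role in the late maturation of mouse red cells, read 0.083, 0.32 and 0.22 in KO replicates 1, 2 and 3, against -1.73, -1.88 and -1.71 in WT replicates 1, 2 and 3. The groups were separated by more than a full log2 unit. The difference was 1.98 (SE 0.11, adjusted p = 0.00228), and 2.09 with the scan as a block (adjusted p = 0.0182). E2f1, its close relative, read -2.59, -3.01 and -2.75 in KO livers, against -3.08, -3.21 and -3.31 in WT livers. All 3 KO values of E2f1 lay above WT, but the difference of 0.42 (SE 0.14) had an adjusted p of 0.0694 and passed only without KO replicate 2 (adjusted p = 0.0172) or with array weights. Groups that do not overlap give p = 0.1 in an exact two-sided permutation test, the smallest that 3 against 3 samples allow.

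No cyclin or kinase of G1 passed the threshold on its brightest probe. Ccnd1, the D-type cyclin that answers growth signals, read -1.74, -1.59 and -1.75 in KO livers, against -1.93, -2.31 and -2.11 in WT livers. Its groups did not overlap. The difference of 0.42 (SE 0.13) missed the threshold (adjusted p = 0.0548) and passed it without WT replicate 1 (adjusted p = 0.0395) and in 7 other settings, among them cyclic loess (0.45, adjusted p = 0.0341), but not with the scan as a block (adjusted p = 0.102). Ccne1, the cyclin that partners Cdk2 at the start of S phase, read -1.41, -1.05 and -1.28 in KO livers and -1.29, -1.68 and -1.67 in WT livers, with overlapping groups (difference 0.30, SE 0.16, adjusted p = 0.185). A second Ccne1 probe was well above background on 1 KO array and 0 WT arrays, so it did not pass the filter and was not tested. It read -2.02, -4.52 and -3.79 in KO livers, against -4.88, -5.39 and -5.63 in WT livers. Ccnd2, Ccnd3 and Cdk2 differed by -0.24, 0.30 and 0.071, and Cdc25a, the phosphatase that frees Cdk2, by 0.32, none past the threshold. Cdk4, the D cyclin kinase, had 3 probes, all with KO below WT: the brightest differed by -0.16 (adjusted p = 0.21 in the fit over probes), a second by -0.30 (adjusted p = 0.0991) and the dimmest by -0.63 (adjusted p = 0.00964).

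Inhibitors and Myc came next. Cdkn1b (p27), an inhibitor of Cdk2, read 0.93, 0.74 and 0.93 in KO livers, against 0.95, 0.67 and 0.73 in WT livers. The groups overlapped (difference 0.086, SE 0.12), and the sign turned after cyclic loess (-0.070). Cdkn2c (p18), an inhibitor of Cdk4 and Cdk6, read -0.13, -0.62 and -0.41 in KO livers and -0.77, -1.55 and -1.13 in WT livers. All KO values lay above WT (difference 0.77, SE 0.23, adjusted p = 0.0525), and the gene passed the threshold in 9 of 20 alternatives, including those without KO replicate 2 (adjusted p = 0.0394) and without WT replicate 1 (adjusted p = 0.0342). Myc, a growth factor response gene, read -2.52, -2.14 and -2.32 in KO livers, against -0.14, -2.66 and -2.22 in WT livers. WT replicate 1 stood far above the other 5 arrays, and the difference of -0.65 (SE 0.65) became 0.11 without it. Cdk6 and Ccne2 were well above background on no array.

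Ribonucleotide reductase, which makes the building blocks of DNA, had the largest difference of the set. Rrm2, its small subunit and the one made in S phase, read 0.62, 1.01 and 0.98 in KO livers, against -1.36, -1.89 and -1.58 in WT livers. The lowest KO value was almost 2 log2 units above the highest WT value. The difference was 2.48 (SE 0.18, adjusted p = 0.0041), and 2.62 with the scan as a block (adjusted p = 0.0228). Rrm1, the large subunit, read -0.16, -0.54 and -0.35 in KO livers and -0.81, -1.31 and -1.12 in WT livers. It rose 1.65-fold (difference 0.73, SE 0.17, adjusted p = 0.0276), and the difference was 0.53 with the scan as a block (adjusted p = 0.159). The thymidine genes did not rise with them: Tyms, thymidylate synthase, read 0.10, -0.11 and 0.13 in KO livers and 0.18, 0.77 and 0.66 in WT livers. All KO values of Tyms lay below WT (difference -0.50, SE 0.18, adjusted p = 0.0814), and it passed the threshold without WT replicate 1 (-0.67, adjusted p = 0.0246). Tk1, thymidine kinase, differed by 0.29 (adjusted p = 0.355) with overlapping groups, and passed without WT replicate 1 (0.53, adjusted p = 0.0483).

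Of the MCM helicase subunits, Mcm2 and Mcm4 rose. Mcm2 read -3.14, -3.24 and -2.61 in KO livers, against -3.84, -4.11 and -3.93 in WT livers. It was well above background on 3 KO and 2 WT arrays, and the difference was 0.97 (SE 0.19, 1.95-fold, adjusted p = 0.0182). With normexp background correction and quantile normalisation the Mcm2 difference was 0.23 (adjusted p = 0.0741). Mcm4 read -0.46, -0.80 and -0.62 in KO livers and -1.05, -1.56 and -1.30 in WT livers, a 1.60-fold rise (SE 0.17 on the log2 scale, adjusted p = 0.0321). Mcm3, Mcm5, Mcm6 and Mcm7 differed by between 0.24 and 0.56, none past the threshold. With the scan as a block the 6 subunits differed by between -0.025 (Mcm5) and 0.73 (Mcm2), none past the threshold.

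Pcna, the polymerase clamp, read 1.88, 1.63 and 1.77 in KO livers, against 1.41, 1.16 and 1.21 in WT livers. It rose 1.42-fold (difference 0.50, SE 0.12, adjusted p = 0.0279), and after cyclic loess the difference was 0.31 (adjusted p = 0.066). Cdt1, the licensing factor, read -0.97, -0.87 and -0.92 in KO livers and -1.05, -2.23 and -1.55 in WT livers. Its KO values were tightly grouped while WT spread over more than 1 log2 unit (difference 0.69, SE 0.29, adjusted p = 0.118). It passed the threshold without WT replicate 1 (0.97, adjusted p = 0.0375) and with WT replicates 1 and 2 averaged. The atypical repressors E2f7 and E2f8 differed by -0.49 (adjusted p = 0.0538) and -0.47 (adjusted p = 0.208), opposite in sign to E2f1 and E2f2. Both passed without WT replicate 1 (adjusted p = 0.0392 for E2f7 and 0.0338 for E2f8). The other licensing factor, Cdc6, was well above background on no array.

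Except for Rrm2, the S phase calls depended on single arrays. Rrm1, Mcm4 and Pcna lost theirs when KO replicate 1 was dropped (adjusted p = 0.0807, 0.0928 and 0.0831), when KO replicate 3 was (0.0971, 0.108 and 0.106), and likewise for WT replicate 2 (0.0813, 0.0841 and 0.0881) or WT replicate 3 (0.107, 0.112 and 0.117). Mcm2 lost its call without KO replicate 3 (adjusted p = 0.0524), WT replicate 2 (0.0654) or WT replicate 3 (0.0773), and with the scan as a block (0.106).

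Mki67, which encodes the Ki-67 protein used to mark cycling cells, read -0.36, -0.34 and -0.38 in KO livers, against -1.92, -2.83 and -2.50 in WT livers. The KO arrays of both scans lay close together and far above WT. The difference was 2.06 (SE 0.23, adjusted p = 0.00676), and 2.08 with the scan as a block (adjusted p = 0.0365). A second Mki67 probe read -0.59, -0.64 and -0.56 in KO livers and -1.98, -2.94 and -2.35 in WT livers, a difference of 1.83 (SE 0.24, adjusted p = 0.00868 in the fit over probes).

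The kinases Cdk1 and Plk1 rose less evenly. Cdk1, the kinase that starts mitosis, read -0.75, -1.76 and -0.999 in KO livers, against -1.98, -3.24 and -2.47 in WT livers. KO replicate 2 was the lowest KO array and lay just above the highest WT array. The difference was 1.40 (SE 0.40, 2.63-fold, adjusted p = 0.0452), 0.81 with the scan as a block (adjusted p = 0.295). A second Cdk1 probe differed by 1.39, and the last one was above background on no array. Plk1, a kinase of spindle assembly and mitotic exit, read -1.49, -2.01 and -1.63 in KO livers and -2.63, -3.15 and -3.21 in WT livers. It rose 2.44-fold (difference 1.29, SE 0.21, adjusted p = 0.0129), with a difference of 0.98 once the scan entered as a block (adjusted p = 0.0707). Cdk1 lost its call without KO replicate 1 (adjusted p = 0.125), KO replicate 3 (0.14), WT replicate 2 (0.108) or WT replicate 3 (0.121). Plk1 did so without KO replicate 3 (0.0602) or WT replicate 3 (0.0642).

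Birc5 (survivin), a subunit of the chromosomal passenger complex, depended on the probe. Its brightest probe read -0.31, -0.85 and -0.38 in KO livers, against -1.65, -2.73 and -2.07 in WT livers, a 3.11-fold rise (difference 1.64, SE 0.30, adjusted p = 0.0161). A second probe, on another transcript accession, differed by -0.18 (SE 0.37), with overlapping groups. The third was well above background on 1 KO array and 0 WT arrays. The mean of the probes that passed differed by 0.73 (adjusted p = 0.103). The call also ended without KO replicate 1 (adjusted p = 0.0552), KO replicate 3 (0.0696) or WT replicate 3 (0.0684), and with the scan as a block (1.30, adjusted p = 0.0983).

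Ccnb1, the cyclin that activates Cdk1 at mitosis, moved against the others on its brightest probe alone. That probe read -0.42, -1.39 and -0.46 in KO livers, against 1.46, 1.61 and 1.12 in WT livers, 4.44-fold lower in KO (difference -2.15, SE 0.30, adjusted p = 0.00906). With the scan as a block the difference was -2.78 (adjusted p = 0.021). The other Ccnb1 probes carry the same accession and differed by -0.075 (SE 0.16) and 0.86 (SE 0.65), with overlapping groups, and the mean of the 3 probes differed by -0.46 (adjusted p = 0.191). What the probes measure apart from Ccnb1 was not tested. Ccnb2, the other B-type cyclin, differed by 0.069 (SE 0.11). Ccna2, the cyclin of S phase and G2, read -0.82, -1.20 and -1.02 in KO livers, against -0.96, 0.23 and -0.14 in WT livers. WT replicate 1 lay among the KO values (difference -0.72, SE 0.31, adjusted p = 0.124), and without it Ccna2 passed at -1.06 (adjusted p = 0.0216).

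**Figure D2:**
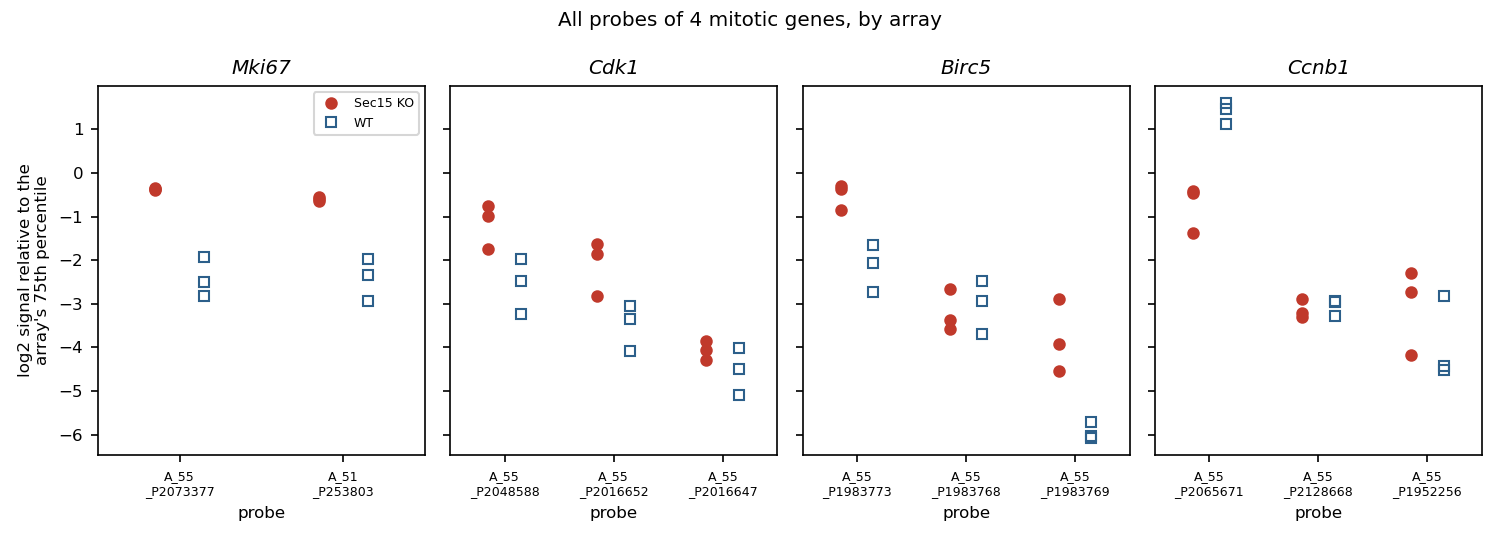
Log2 level (vertical axis, relative to the array's 75th percentile) of every probe of Mki67, Cdk1, Birc5 and Ccnb1 (horizontal axis, brightest first), with Sec15 KO as filled circles left of WT as open squares. Both Mki67 probes and 2 Cdk1 probes have KO above WT, while the Ccnb1 difference of -2.15 stands on 1 of 3 probes.

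Wee1, the kinase that holds Cdk1 inactive, read -3.42, -3.57 and -3.67 in KO livers, against -2.69, -2.60 and -2.72 in WT livers. It was 1.84-fold lower in KO (difference -0.88, SE 0.11, adjusted p = 0.00722) and well above background on 2 KO and 3 WT arrays. The scan as a block gave -0.90 (adjusted p = 0.0327), and normexp with quantile normalisation gave -0.25. Cdc25b, the phosphatase that opposes Wee1, differed by -0.33 (SE 0.39) and was well above background on 2 arrays of each group. Without WT replicate 1 the Cdc25b difference was -0.79 (adjusted p = 0.0143).

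Aurka, Kif20a and Cdc20, genes of the spindle, the cytokinetic midzone and the exit from mitosis, had KO arrays far apart. Aurka read -1.30, -2.61 and -1.64 in KO livers, against -2.73, -3.21 and -2.84 in WT livers (difference 1.08, SE 0.35, adjusted p = 0.0642). Kif20a read -1.001, -2.63 and -1.51 in KO livers and -2.44, -3.12 and -2.75 in WT livers (difference 1.06, SE 0.43, adjusted p = 0.111). Cdc20 read 0.70, -1.28 and 0.12 in KO livers and -1.14, -0.47 and -0.58 in WT livers (difference 0.58, SE 0.52, adjusted p = 0.41). In each, KO replicates 1 and 3 lay above all WT arrays, while KO replicate 2 lay just above WT for Aurka, within WT for Kif20a and below WT for Cdc20. Without KO replicate 2, Aurka (1.46, adjusted p = 0.0058), Kif20a (1.52, adjusted p = 0.0103) and Cdc20 (1.14, adjusted p = 0.0258) passed the threshold. Cenpa, the histone H3 variant of centromeres, read -1.995, -2.78 and -2.22 in KO livers, against -2.72, -3.53 and -2.88 in WT livers. Its groups overlapped and its KO arrays lay no further apart than its WT arrays (difference 0.71, SE 0.29, adjusted p = 0.109). It was 0.26 with the scan as a block (adjusted p = 0.62) and 0.94 without KO replicate 2 (adjusted p = 0.0401).

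Top2a, the topoisomerase that untangles sister chromatids, read -2.66, -4.03 and -2.56 in KO livers, against -6.11, -3.41 and -2.72 in WT livers. It was well above background on 2 arrays of each group, and the difference of 0.996 (SE 0.93) became -0.018 without WT replicate 1. Foxm1, a driver of mitotic transcription, differed by 0.22 (SE 0.21) on its brighter probe and by -1.02 (SE 0.70) on the other. Aurkb was well above background on KO replicates 1 and 3, where it read -3.72 and -2.77, and on no other array. Bub1, Bub1b, Ttk, Plk4, Cdc25c and Kif11 were well above background on no array. Their probes give no order between the groups.

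The KO arrays of the separate scans differed in how high the mitotic genes stood. In KO replicates 1 and 3 the mitotic genes lay a median of 1.14 above the WT mean, S phase genes 0.59 and G1 genes 0.25. In KO replicate 2, scanned with WT, the medians were 0.047, 0.32 and 0.16. KO replicate 2 was the lowest KO array for 12 of 15 mitotic genes (80%), 10 of 14 S phase genes (71.4%) and 7 of 12 G1 genes (58.3%), beside 45.3% of all genes. Among WT arrays, replicate 1 was the highest for 29 of the 41 genes (70.7%, beside 47.5% of all genes), and replicate 2 the lowest for 27 (65.9%, beside 46.6%). The scan and the samples that were scanned together cannot be told apart, and the part of the scan in these values was not tested beyond the block.

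**Figure D3:**
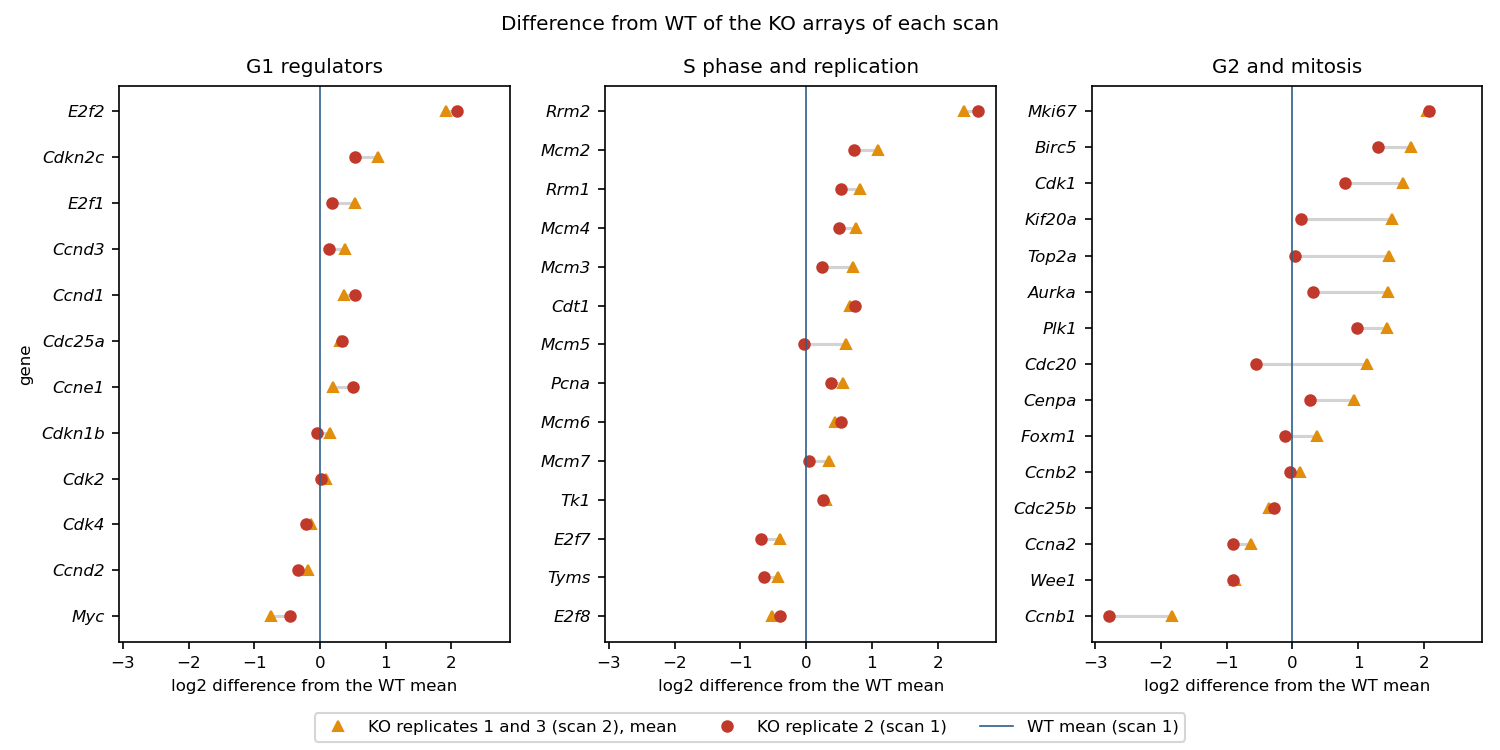
For each gene, the log2 difference from the WT mean (vertical line, scan 1) is shown for KO replicates 1 and 3 (triangles, mean, scan 2) and for KO replicate 2 (circles, scan 1). The symbols nearly coincide for Mki67, Rrm2, E2f2 and Wee1 and lie over 1 unit apart for Cdc20, Top2a, Kif20a and Aurka.

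**Figure D4:**
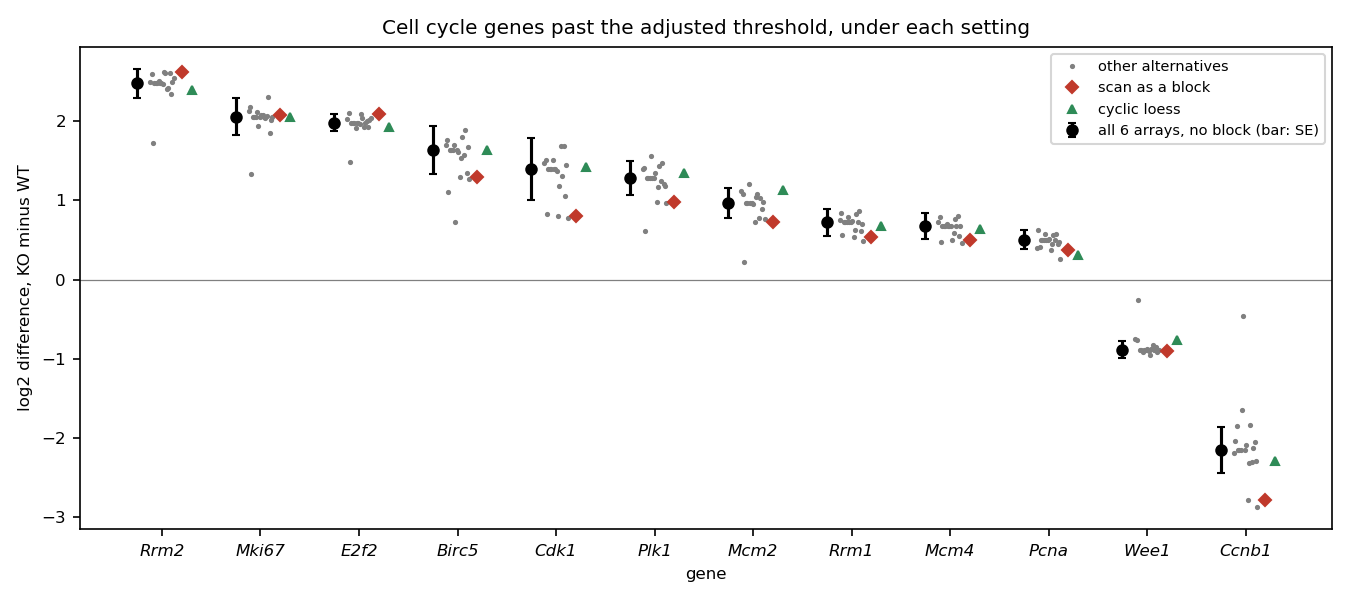
Log2 difference, KO minus WT (vertical axis), of the 12 genes past the adjusted threshold, with all 6 arrays (black, bar SE), with the scan as a block (diamonds), after cyclic loess (triangles) and under the other alternatives (grey dots). All points of each gene lie on one side of 0, with the widest spread for Ccnb1 (between -2.87 and -0.46).

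Other genes of the cell cycle, in 10 lists of 154 genes of which 122 passed the filter, gave 27 higher and 9 lower in KO, beside 17.3% and 12.2% of all genes, with a median difference of 0.27. One of the 27, Nusap1, passed the filter only through its KO arrays. With the scan as a block the 122 genes gave 8 higher and 6 lower, beside 5.07% and 4.68% of all genes. Of the 27 and the 9, 7 and 5 kept their call. These were Cdkn1a, Incenp, Pole4, Rpa2, Ccng2, Atr and Rbl1, which were higher, and Cdc27, Pola1, Mcm10, Lin37 and Cenpk, which were lower, with Cenpk almost at the threshold (adjusted p = 0.049969). Every other call named from these lists ended. Inhibitors other than the members above had 2 of 4 higher and none lower (3 and 0 unadjusted). Cdkn1a (p21), an inhibitor induced by p53 and by stress, read -1.03, -0.99 and -0.91 in KO livers, against -3.26, -2.78 and -2.90 in WT livers. It rose 4.00-fold (SE 0.15 on the log2 scale, adjusted p = 0.0041), beside Cdkn1c (p57) at 1.56-fold (adjusted p = 0.0161). The Cdkn2d and Cdkn2b differences of 0.54 and -1.07 did not pass.

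Origin licensing and firing had 6 of 14 higher and 1 lower. The GINS subunits Gins1 and Gins3 rose 1.89-fold and 1.47-fold (adjusted p = 0.0176 and 0.0424), and the origin subunit Orc3 1.30-fold (adjusted p = 0.0302). Under the scan block the adjusted p was 0.0936 for Gins1, 0.192 for Gins3 and 0.0829 for Orc3. Their differences were 0.84, 0.25 and 0.40 with the block, against 0.92, 0.55 and 0.375 without it. Mcm10, which joins the helicase to the polymerase, was 1.81-fold lower (difference -0.86, SE 0.16, adjusted p = 0.0156). Polymerases, clamp loader and nick repair had 4 of 23 higher and 1 lower. Rpa2, a single-strand binding subunit, rose 2.19-fold and the polymerase epsilon subunit Pole4 2.07-fold (adjusted p = 0.00818 and 0.00727). Pola1, the catalytic subunit of polymerase alpha, was 1.80-fold lower (adjusted p = 0.00991). The lower calls were 7.14% of the licensing list and 4.35% of the polymerase list, beside 12.2% of all genes. The higher calls were 42.9% and 17.4%, beside 17.3%.

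Spindle, cytokinesis and condensation had 5 of 17 higher and 2 lower, or 4 of 16 higher without Nusap1. Incenp, the scaffold of the chromosomal passenger complex that also holds Birc5, read -0.26, -0.18 and -0.26 in KO livers, against -1.46, -1.94 and -1.52 in WT livers. It rose 2.66-fold (adjusted p = 0.00623). It kept its call under the scan block (adjusted p = 0.0303). Nusap1 was well above background on 3 KO arrays and no WT array, at least 2.43-fold brighter in KO, with the WT arrays taken at the lowest signal well above background. The filter let it in through the KO arrays alone, so no test of it is given. Kif22, a chromosome-binding kinesin, rose 2.17-fold (adjusted p = 0.0202), and Ncaph, a condensin subunit, was 3.89-fold lower (SE 0.39 on the log2 scale, adjusted p = 0.019). Kif22 and Ncaph differed by 0.90 and -1.10 under the scan block (adjusted p = 0.122 and 0.059), against 1.12 and -1.96 without it. Kinetochore and checkpoint genes had none of 11 higher (3 at an unadjusted p under 0.05) and 1 lower, Cenpk at -1.91 (SE 0.31, adjusted p = 0.0125). Zwilch, Ndc80 and Spc25 differed by 0.69, 0.29 and 0.27, none past the threshold.

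The anaphase promoting complex had 2 of 15 higher and 2 lower. Cdc27, one of its core subunits, was 2.22-fold lower (difference -1.15, SE 0.11, adjusted p = 0.00617), as was the activator Fzr1 at 1.54-fold (adjusted p = 0.0296). Fbxo5, an inhibitor of the complex, rose 1.92-fold (adjusted p = 0.0312) and the subunit Anapc7 1.39-fold (adjusted p = 0.0358). Under the scan block Fzr1 was -0.33 (adjusted p = 0.114), Fbxo5 0.87 (adjusted p = 0.151) and Anapc7 0.28 (adjusted p = 0.173). The DREAM and B-Myb list had 1 of 7 higher, Lin54 at 1.78-fold (adjusted p = 0.017), and 2 lower, Lin52 at 3.48-fold (adjusted p = 0.0116) and Lin37 at 1.54-fold (adjusted p = 0.0379), all MuvB subunits. Dyrk1a, the kinase that assembles DREAM, differed by 0.33 (adjusted p = 0.0891). Pocket proteins, other E2F and DP factors had 2 of 9 higher and none lower (2 and 1 unadjusted). They were Rbl1 (p107) at 1.74-fold and Tfdp2 at 1.56-fold (adjusted p = 0.0145 and 0.0284), while E2f6 and E2f3 differed by -0.32 and 0.31.

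Damage checkpoint genes had 3 of 9 higher and none lower (5 and 0 unadjusted). The kinases Atm and Atr rose 1.65-fold and 1.61-fold (adjusted p = 0.0188 and 0.0116) and the clamp loader Rad17 1.53-fold (adjusted p = 0.0134). The scan block ended the calls of Atm (adjusted p = 0.0798) and Rad17 (adjusted p = 0.0619). Their differences were 0.74 and 0.52 with the block, against 0.72 and 0.61 without it. Hus1 differed by 0.67 (adjusted p = 0.0539). Other cyclins and kinase partners had 2 of 13 higher and none lower (4 and 1 unadjusted). Ccng2, a cyclin linked to cell cycle exit, rose 1.83-fold (adjusted p = 0.00977) and Mnat1 1.71-fold (adjusted p = 0.0451), while Cks1b and Cks2 differed by -0.45 and 0.51 (adjusted p = 0.0502 and 0.0518).

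Markers of some other cell types differed between the groups. Of 16 markers of erythroblasts and red cells, 7 of the 14 that passed rose and 1 fell, and none was below background on all 6 arrays. Their summed linear signal, relative to the 75th percentile, was between 349 and 447 on KO arrays, against 86.7 to 132 on WT arrays. The globin genes Hba-a2, Hbb-bt and Hba-a1 made up most of each sum, so it says little of the other markers. The gene that fell was Rhag (difference -0.98, adjusted p = 0.0349). Tfrc, the transferrin receptor that dividing and iron-loading cells carry, differed by 1.52 (SE 0.087) and the band 3 gene Slc4a1 by 2.08 (SE 0.16). The erythroid factor Klf1 differed by 0.34 (adjusted p = 0.095) and Alas2 by 0.018. The part of red cell RNA in the values of Rrm2, Mki67 and E2f2 was not tested.

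Granulocyte precursor markers summed to between 9.37 and 16.0 on KO arrays and 7.86 to 8.32 on WT arrays, with 3 of 8 higher. These were S100a8 (2.72), S100a9 (2.33) and Camp (1.75), which kept their calls under the scan block. Elane and S100a9 made up most of each sum. All KO values of Elane (-0.305) and Prtn3 (-0.465) lay below WT, though neither passed the threshold. Ctsg (-0.42), Mpo (1.325) and Ltf (-0.26) had overlapping groups. Kupffer cell and monocyte markers had sums of 43.6 to 56.2 on KO arrays and 32.0 to 32.2 on WT arrays, with 3 of 8 higher. For endothelial markers the KO sums were 28.3 to 37.6, against 22.9 to 23.5 in WT, with 4 of 9 higher. T and NK cell markers had lower sums, at 23.6 to 28.1 on KO arrays and 40.9 to 41.8 on WT arrays. Of these markers, 3 of 7 were lower (Cd4, Cd3e and Nkg7), and Cd3g, Ncr1 and Klrb1c were above background on no array. Cd4, the brightest, made up most of each sum. Cd8a and Cd2 differed by -0.41 and -0.29, and Lck and Cd3d by 0.41 and 0.40, none past the threshold. B cell markers (0 of 6 higher, also 0 unadjusted, and 1 lower) had sums of 8.93 to 9.48 on KO arrays, against 9.62 to 11.8 on WT arrays. Stem and progenitor markers (1 of 8 higher, 1 lower, with Slamf1 and Myb above background on no array), stellate cell markers (3 of 8 higher) and bile duct markers (1 of 6 higher, 1 lower) had sums that overlapped between the groups. Pancreas markers had 1 of 8 higher and 6 lower. Hepatocyte markers had 4 of 11 higher, with sums of 2282 to 2794 on KO arrays and 2053 to 2149 on WT arrays. The part of any of these cells in the values of the cell cycle genes was not tested.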

How the data were processed

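Liver RNA of 3 Sec15 KO and 3 WT samples was measured on 1 one-colour array each. The deposited values are the intensity per spot from Agilent Feature Extraction (version 11.0.1.1), background-subtracted and detrended per the file headers and with no scaling of one array to another. The deposited files hold other values too: flags that mark spots well above background, saturated spots and outliers.

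There were 43020 spots and 39429 probes that were not controls. Outlier spots (178 to 236 on an array) were dropped, saturation was flagged on none, and log2 values of spots of 1 probe were averaged. A probe counted as well above background where at least as many of its spots carried the flag as did not. Each array was centred on its 75th percentile. Probe accessions were matched to RefSeq symbols (GRCm38.p6 table), which named 27234 probes and left 12195 unnamed. The brightest probe passing the filter stood for a gene. A difference was tested with limma 3.58.1 (lmFit, eBayes) in R 4.3.3, with Benjamini-Hochberg adjustment over 22834 genes, and probes were fitted alike. On simulated data for 22834 genes the fit called 45 of 100 genes given a 2-fold change, 84 of 100 given a 4-fold change and 6 given none. Far fewer genes were changed there than were called in the data, all were raised, and no scan was simulated. Those shares therefore do not give the detection rate in the real data. The number of arrays limits the precision.

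The genes, lists and phases were chosen with earlier results of these data known. Values by array are given for genes past the adjusted threshold and for 12 genes that the rule lists by name, and those of other members were added after their values were seen. From each pathway list at most 4 genes are named, those of smallest p. The values of 1 listed gene are not reported here. The replicate numbers were not taken as pairs: deviations of same-numbered arrays correlated at 0.111, 0.11 and 0.016. Alternatives were other scalings (quantile, median, cyclic loess, normexp with offset 50), filters, eBayes settings, array weights, the mean of probes, the replicate number or scan as a block, and arrays left out or averaged. The scan block together with cyclic loess was added after seeing the data.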

Additional observations from a re-analysis of the deposited data

How the results depend on the processing

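Across all genes, 3958 higher and 2789 lower calls became 1158 and 1069 with the scan as a block, 846 and 1030 with that block after cyclic loess, and 9584 and 7678 with array weights. Cyclic loess alone left 2441 higher and no filter 2611. Leaving out 1 array gave between 341 and 5729 higher and between 277 and 5071 lower. On the arrays of scan 1 alone, where KO replicate 2 is the lone KO array and is assumed to vary like WT, limma called 0 genes, among them 0 cell cycle genes, and at an unadjusted p under 0.05 it called 6758 genes, with 5 cell cycle genes higher and 3 lower. The cell cycle counts of 10 higher and 2 lower were 28 and 9 with array weights, and 3 and 2 with the scan as a block, with or without cyclic loess. They ranged from 3 to 18 higher and 2 to 7 lower with 1 array left out, and 5 were lower with WT replicates 1 and 2 averaged. The replicate block, where samples share only a number, gave 15 higher and 2 lower, and 2 of 3 KO arrays correlated best with the WT array of their own number.

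The G1 median of 0.30 was 0.42 with median centring, 0.12 with normexp and quantile, 0.16 with the scan as a block or scan 1 alone, 0.13 with that block and cyclic loess, and between 0.21 and 0.36 with 1 array left out. The S phase median of 0.48 was 0.30 with normexp and quantile, 0.32 with the scan block or scan 1 alone, 0.23 with cyclic loess added to the block, and between 0.30 and 0.73 with 1 array left out. The mitotic median of 0.71 was 0.047 with the scan block, 0.41 with normexp and quantile, and between 0.37 (without WT replicate 1) and 1.14 (without KO replicate 2) with 1 array left out. With median centring the median of all genes was 0.18, beside 0.064 with the 75th percentile, and levels there are read relative to it.

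Signs turned only for genes that did not pass. With the scan block, or scan 1 alone, Cdkn1b was -0.040, Mcm5 -0.025, Ccnb2 -0.031, Cdc20 -0.55 and Foxm1 -0.11. With cyclic loess added to the block they were -0.14, -0.018, -0.076, -0.61 and -0.13 in the same order, and Mcm7 was -0.062. Cdkn1b was -0.070 after cyclic loess and -0.085 with normexp and quantile, and Foxm1 was -0.40 as the mean of its probes. With 1 array left out, Cdk2 ranged from -0.11 to 0.24, Myc from -1.15 to 0.11 and Top2a from -0.018 to 1.68. The cause of these changes was not tested.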
